A study of Mus musculus with 87 samples.

Results

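The 10 genes described here encode the enzymes and regulators with which the liver makes fatty acids from sugar: Srebf1, Fasn, Acaca, Acly, Scd1, Scd2, Elovl6, Me1, Thrsp and Pnpla3. They were chosen by symbol from the 37991 genes of the deposited log2 RPKM values (RPKM, reads per kilobase of transcript, scaled to the mapped reads of the library), and all 10 were found once as protein-coding genes. The values come from poly(A)-selected RNA of individual livers of male C57BL/6 mice. The mice were aged 12 to 14 weeks at surgery, so post-PH livers at 1 and 4 weeks came from older mice. Before surgery the mice had been kept for 2 weeks with food only in the dark phase, from ZT12 to ZT24 (ZT0 is lights on). Surgery was done at ZT2. It was either a partial hepatectomy (PH), in which most of the liver is removed and the rest regrows, or a sham operation, in which the abdomen was opened under isoflurane and the liver left whole. Unoperated livers were taken at the start (C0, 9 livers, ZT2), 4 h later (C4, 3 livers, ZT6) and at 4 weeks (C4W, 2 libraries). Sham livers were taken at 1 h (S1, 6 livers, ZT3), 4 h (S4, 5 livers, ZT6), 10 h (S10, 3 livers, ZT12), 20 h (S20, 3 livers, ZT22) and 48 h (S48, 3 livers, ZT2). Post-PH livers were taken at 1 h (X1, 6 livers), 4 h (X4, 3 livers), 10 h (X10, 6 livers), 20 h (X20, 6 livers), 28 h (X28, 3 livers, ZT6), 36 h (X36, 6 livers, ZT14), 44 h (X44, 3 livers, ZT22), 48 h (X48, 5 livers), 72 h (X72, 3 livers, ZT2), 1 week (X1W, 3 livers) and 4 weeks (X4W, 2 livers). No genetic change distinguishes the groups. Both operations were done under isoflurane, and the paper also mentions a painkiller, while the unoperated controls had no treatment. Against unoperated livers, surgery and these drugs therefore cannot be told apart. The hour of collection at 1 and 4 weeks is not given.

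In a fed liver, surplus glucose is turned into fat. Citrate leaves the mitochondria, Acly cleaves it to acetyl-CoA, Acaca carboxylates acetyl-CoA to malonyl-CoA, and Fasn joins these units into palmitate with NADPH that Me1 supplies in part. Elovl6 lengthens palmitate, and the stearoyl-CoA desaturases Scd1 and Scd2 place a double bond in the product. Srebf1 encodes SREBP-1, the transcription factor that switches this set on after feeding and insulin. Thrsp is a small protein that rises with lipogenesis, and Pnpla3 sits on lipid droplets and is a known SREBP-1 target.

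The analysed libraries held an estimated 12.2 to 48.8 M reads (median 26.7 M). The hepatocyte markers Alb, Apoa1 and Hnf4a were above 0 in all 80 libraries, as liver tissue should have them. C4W replicates 1 and 2 were the most alike of 160 pairs of libraries within a group. Their median squared difference over genes, scaled so that read sampling alone gives 0.455, was 0.65, against 1.19 for the next pair, and they were kept as 2 libraries because their mean of 2.94 exceeded the 1 that sampling gives. That does not show that they came from separate animals, and comparisons with C4W may rest on 1 liver. The work was done in 3 periods, by the study's methods, and the labels do not say which replicates belong to which, so period was no term of the fit. S48, X28, X44, X48, X72 and X1W all came from the first period, S10, S20, C4W and X4W from the second and C4 from the third, while C0 was taken in each and S1, S4, X1, X4, X10, X20 and X36 in the first and the second. PH and sham at 48 h and both groups at 4 weeks thus share a period. S10 and S20 share theirs with part of X10 and X20, and C4, X48, X72 and X1W theirs with part of C0. C4 shares none with S4 or X4, nor C4W with X48, X72 or X1W, and there period and group cannot be told apart.

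Srebf1, Acly, Acaca and Fasn all lie on mouse chromosome 11 and Scd1 and Scd2 on chromosome 19. In the build of the files (mm9), Srebf1 spans chr11:60012591-60036083, Fasn chr11:120667254-120685492, Acaca chr11:83943174-84215153, Acly chr11:100337667-100389314, Scd1 chr19:44468941-44482199 and Scd2 chr19:44368166-44381354. Elovl6 spans chr3:129235304-129341413, Me1 chr9:86474970-86589947, Thrsp chr7:104561448-104566240 and Pnpla3 chr15:83998246-84019942.

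The 250 bases before each annotated start of a protein-coding transcript were read from the mm9 genome with the Gencode vM1 annotation, which gave 22 windows for the 10 genes. Windows of 2 genes are shown, that of Scd1 because it had the widest span of levels and that of Pnpla3, a known SREBP-1 target, because it had the lowest. Both are written 5′ to 3′ on the strand of the gene and end at the base before the start, and neither overlaps an annotated gene. The Scd1 window is chr19:44482200-44482449 on the minus strand and the Pnpla3 window chr15:83997996-83998245 on the plus strand. Capitals mark CCAAT on either strand, which reads ATTGG when it lies on the opposite strand.
Scd1: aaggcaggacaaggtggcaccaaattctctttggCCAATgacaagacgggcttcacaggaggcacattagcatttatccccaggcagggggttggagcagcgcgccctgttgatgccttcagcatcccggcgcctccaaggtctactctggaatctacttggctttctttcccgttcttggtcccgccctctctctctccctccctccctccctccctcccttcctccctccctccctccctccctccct
Pnpla3: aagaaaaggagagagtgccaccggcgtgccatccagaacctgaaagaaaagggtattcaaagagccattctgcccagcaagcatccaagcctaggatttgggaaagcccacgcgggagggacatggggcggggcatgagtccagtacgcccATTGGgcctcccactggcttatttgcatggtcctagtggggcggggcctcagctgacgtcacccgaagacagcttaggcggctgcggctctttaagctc
The CCAAT match began 216 bases before the start in Scd1 and 99 bases before it in Pnpla3. Both strands were searched. CCAAT was found in windows of 7 of the 10 genes and of 43.8% of all genes, and the E-box CACGTG in those of Acaca alone and of 9.34% of all genes. GGGCGG, a GC box, was in windows of 7 of the 10 genes and of 48.0% of all genes. Windows of neighbouring starts of a gene overlap and so share matches, and a match is a description of letters and not a bound site.

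Resting levels spanned a very wide range on the per-length scale. At C0, Scd1 had a lowest value of 1026, a median of 1500.1 and a highest value of 2744 RPKM and Thrsp a lowest value of 92.3, a median of 198 and a highest value of 369 RPKM. Me1, Acly and Fasn came next, with medians of 66.2, 54.5 and 33.3 RPKM. Srebf1 had a median of 17.4 RPKM, Elovl6 9.96, Acaca 6.99 and Scd2, the desaturase of brain and other tissues, 3.06 RPKM. Pnpla3 was by far the lowest, with a lowest value of 0.101, a median of 0.745 and a highest value of 2.47 RPKM, and it passed the detection level of -1.5 log2 RPKM in 28 of 80 libraries, while the other 9 genes passed it in all 80. Its lowest library held an estimated 1.00 read and its median library 14.0, so its small values carry a large counting error. Resting livers were not alike: the mean Scd1 level was 1479 RPKM in C0 replicates 1 to 3, 2484 in replicates 4 to 6 and 1232 in replicates 7 to 9, and the mean Acly level 55.2, 81.8 and 40.1 RPKM.

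**Figure D1:**
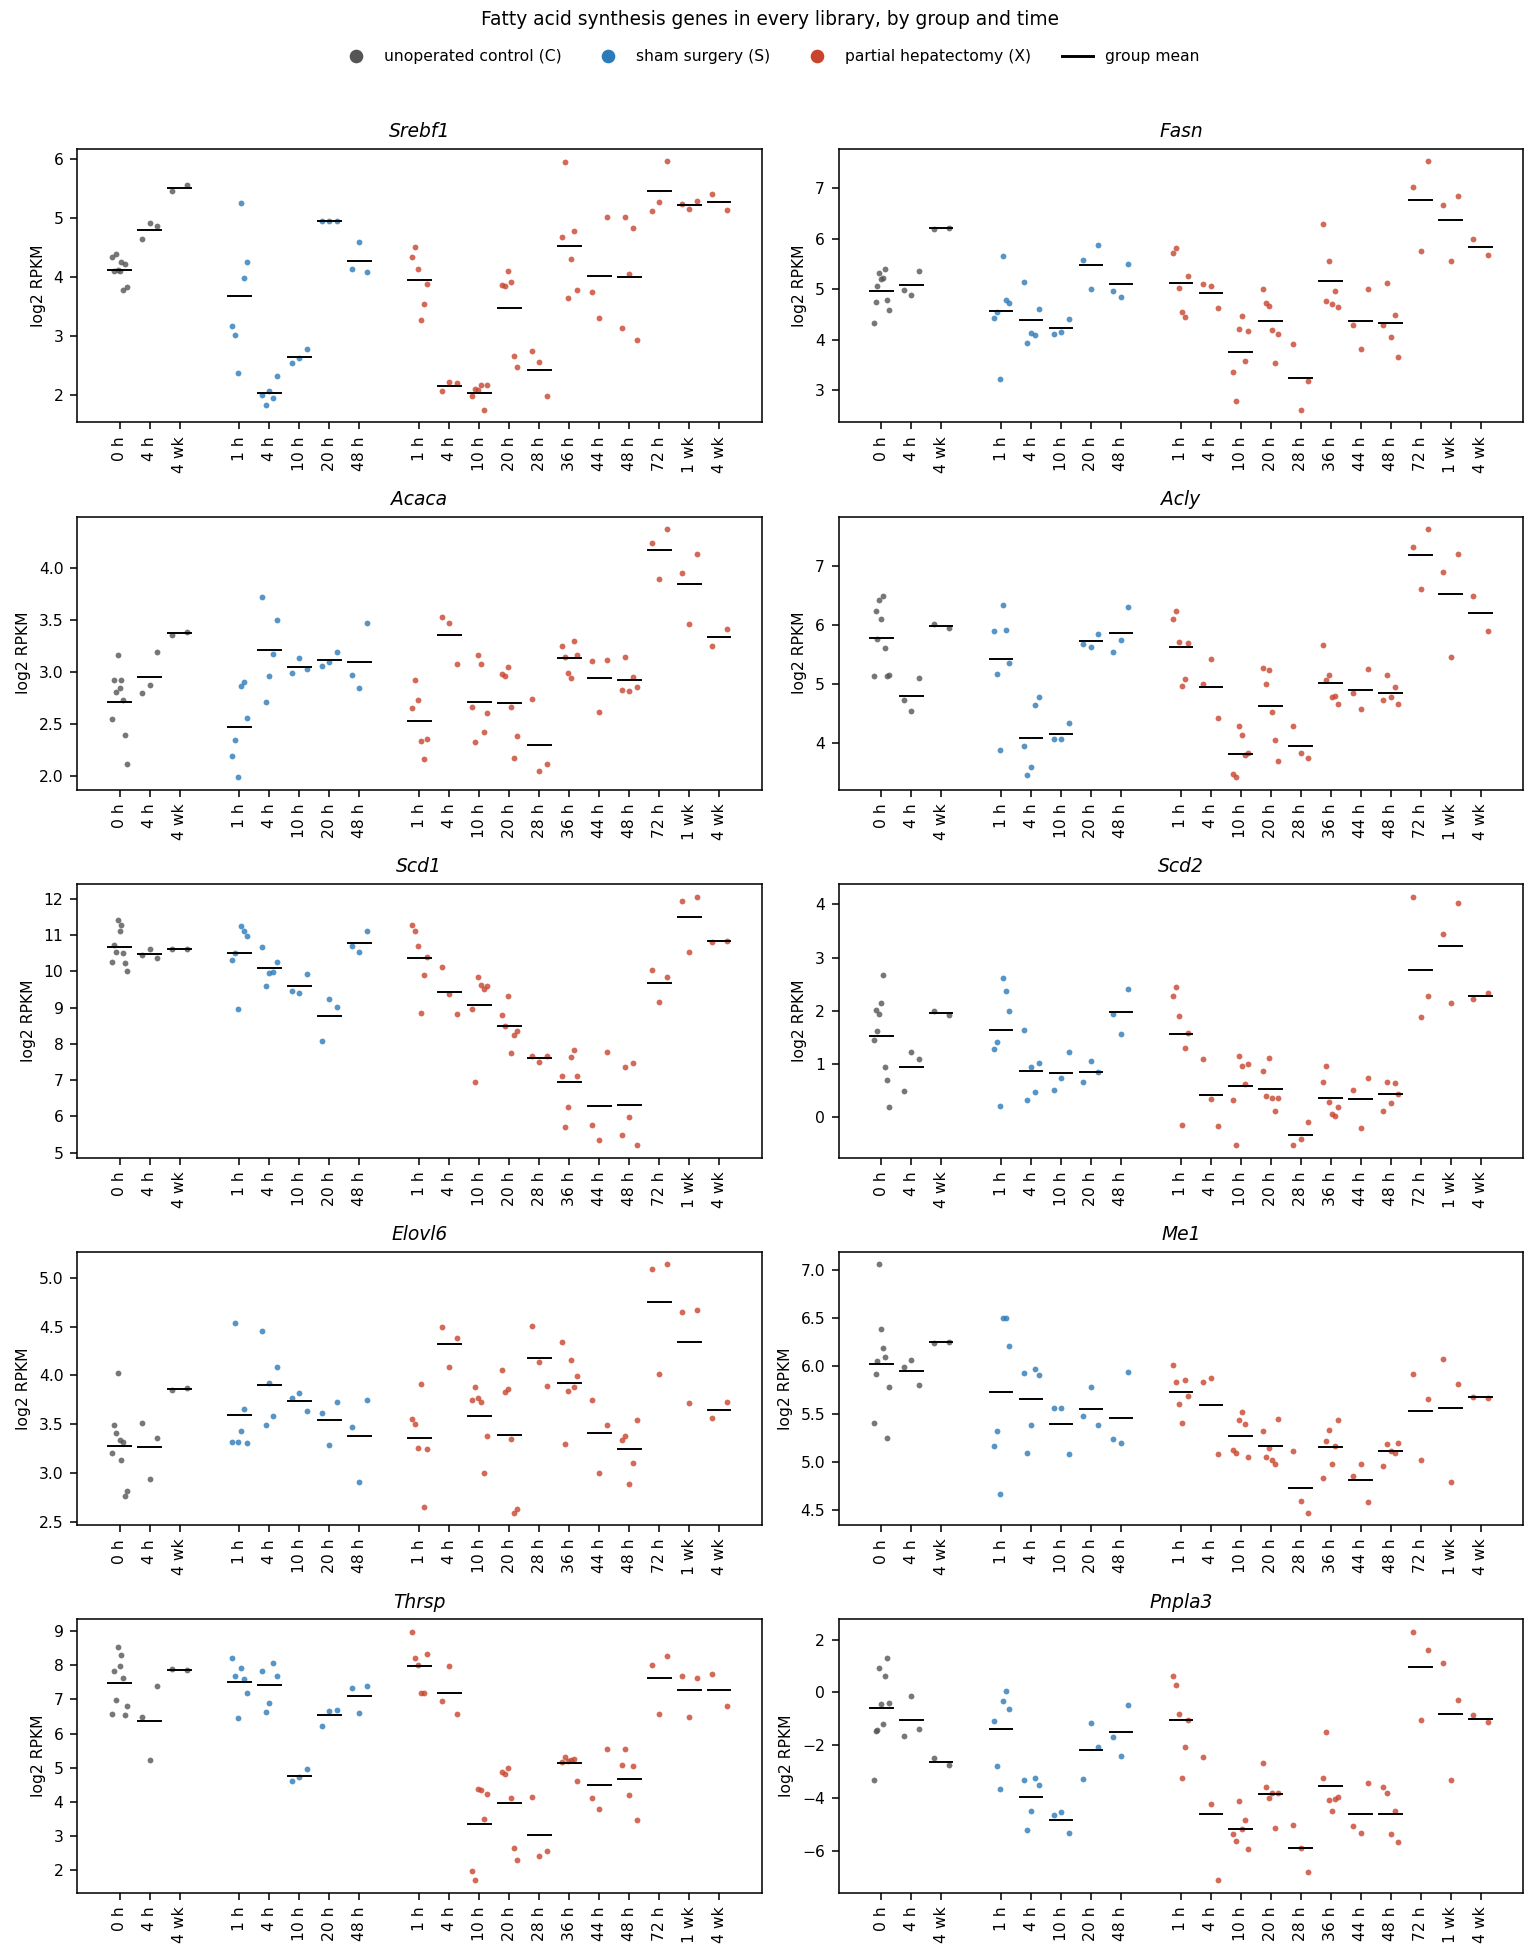
Level of each of the 10 genes (vertical axis, log2 RPKM) in each of the 80 libraries, by group and time on the horizontal axis, with unoperated livers in grey, sham livers in blue, post-PH livers in red and black bars for group means. Group means of Scd1 step down from 1 h to 44 h after PH, Srebf1 and Pnpla3 are low at 4 and 10 h after both operations, and 7 of the 10 genes have their highest group mean at 72 h or 1 week.

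The first question was what either operation did in the first hours. At 4 h, Srebf1 was far lower after both operations than in unoperated livers of the same hour, and Pnpla3 was lower too. Srebf1 had 25.1, 30.2 and 29.2 RPKM in C4, 4.03, 3.57, 4.24, 3.89 and 5.02 RPKM in S4 and 4.20, 4.66 and 4.62 RPKM in X4. Every operated liver was below every unoperated one. The log2 fold change was -2.69, SE 0.39, adjusted p = 3.06e-08 for sham and -2.58, SE 0.44, adjusted p = 9.75e-07 for PH (limma, Benjamini-Hochberg over 15396 genes). Against C4, 2 of the 10 genes were called lower in S4 and none higher, where 31.0% of all genes tested were called lower and 43.3% called at all. A gene was called where its log2 fold change lay beyond 0.5 in size and its adjusted p under 0.05. In X4 the calls were 2 lower and 1 higher, beside 33.9% of all genes lower, 11.7% higher and 45.6% in all, so neither count stands out from the background. Groups that did not overlap were seen for 2 of the 10 genes in S4 and 4 in X4, against 52.5% and 64.8% of all genes. Because tissue was measured in bulk, fewer cells of a type and less RNA per cell cannot be told apart here or below.

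Pnpla3 had 0.321, 0.899 and 0.385 RPKM in C4, 0.101, 0.0271, 0.0442, 0.105 and 0.0869 RPKM in S4 and 0.185, 0.0532 and 0.00720 RPKM in X4. The operated livers did not overlap with C4. The log2 fold changes were -1.22, SE 0.46, adjusted p = 0.0212 in S4 and -1.21, SE 0.52, adjusted p = 0.0424 in X4, on the scale of RPKM + 0.25, which understates changes this low. Without C4 replicate 2 neither was called (adjusted p = 0.15 and 0.198 by limma), and in X4 the call was also lost without C4 replicate 3 or X4 replicate 5 or 6 (adjusted p from 0.0508 to 0.133). Elovl6, the elongase, went the other way, with 11.4, 7.68 and 10.3 RPKM in C4 and 22.5, 17 and 20.9 RPKM in X4. All 3 X4 livers were above the C4 livers, with a log2 fold change of 1.03, SE 0.31, adjusted p = 0.00398. In S4 the Elovl6 change was 0.62, SE 0.28, adjusted p = 0.0512. Thrsp, Acaca, Me1, Scd1, Scd2, Fasn and Acly passed the test in neither.

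The median of all genes tested moved by -0.22 (log2) in S4 against C4 and by -0.26 in X4 against C4. Marker sums also differed from C4 without overlap. The hepatocyte list (9 genes) ran from 50386 to 53965 RPKM in C4, from 35987 to 48325 in S4 and from 38167 to 41036 in X4, and the stellate cell list (7 genes) from 75.5 to 88.6, from 31.5 to 50.6 and from 36.8 to 48.0 RPKM. The part of these shifts was not tested. Relative to the shifts of the median Srebf1 still stood at -2.48 and -2.32. After scaling all libraries to 1 median, the S4 calls became 2 higher (Elovl6 and Thrsp) and 2 lower (Srebf1 and Pnpla3), and in X4 Pnpla3 lost its call (adjusted p = 0.055) while Acaca and Elovl6 were called higher. Among all 15396 genes tested, 2894 were then called higher and 3405 lower in S4, and 2905 and 3631 in X4.

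Time of day without surgery was compared in C4 against C0. Acly alone was called lower, beside 2.08% of all genes lower and 7.89% in all, with 26.5, 23.3 and 34.5 RPKM in C4 and a lowest value of 35.3, a median of 54.5 and a highest value of 90.1 RPKM in C0. The C4 values all lay below the C0 values, as groups did not overlap for 6.72% of all genes. The log2 fold change was -0.99, SE 0.33, adjusted p = 0.0341, and the call was lost without C4 replicate 1 or 2 or C0 replicate 2, 4, 5 or 6 (adjusted p from 0.0531 to 0.2). It was also lost with C0 replicates 1 to 3 alone as the control (-0.92, adjusted p = 0.0884) and with replicates 7 to 9 alone, where the change was -0.51 (adjusted p = 0.552). With replicates 1 to 3, 4 to 6 and 7 to 9 alone, 2571, 2761 and 174 of all genes were called, against 1215 with all 9. So the comparison as a whole depended on the C0 replicates used. Which of them share the period of C4 is not given, and the cause was not tested. All C4 livers were also above all C0 livers in Srebf1, at 17.7 ± 2.45 RPKM (SD, n = 9) in C0 and 28.2 ± 2.70 RPKM (SD, n = 3) in C4, which did not pass the test (0.67, SE 0.36, adjusted p = 0.197).

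PH was then set against sham at each shared hour. At 1, 4 and 10 h none of the 10 genes was called, beside 0.650%, 8.64% and 7.02% of all genes, and by limma 0, 1 and 1 of them had an unadjusted p under 0.05. Acly had 15.4, 11, 12.2, 25 and 27.7 RPKM in S4 and 32.1, 43.2 and 21.6 RPKM in X4. S4 replicates 4 and 5 were the upper pair and overlapped with the X4 range, at a log2 fold change of 0.85, SE 0.37, adjusted p = 0.111. Thrsp had 24.4, 26.5 and 31.5 RPKM in S10 and a lowest value of 3.27, a median of 15 and a highest value of 20.7 RPKM in X10. All 6 X10 livers lay below the 3 S10 livers, yet the change was -1.38, SE 0.54, adjusted p = 0.0828. Srebf1 also did not overlap at 10 h (-0.58, SE 0.38, adjusted p = 0.362), and 17.6% of all genes did not overlap in that comparison. With S10 and X10 fitted alone, or with X10 replicates 1 to 3 only, 1 gene was called lower. In these settings 905 and 1363 of all 15396 genes were called. At 1 h and 4 h the groups overlapped for every one of the 10 genes, while 0.786% and 21.6% of all genes did not overlap. The S1 livers were widely spread. Srebf1 ran from 5.21 to 38.2 RPKM there, and S1 replicate 3 was the lowest library for 9 of the 10 genes. With replicates 1 to 3 of both 1 h groups alone, 2 genes were called higher, beside 435 of all 15396 genes called in either direction.

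**Figure D2:**
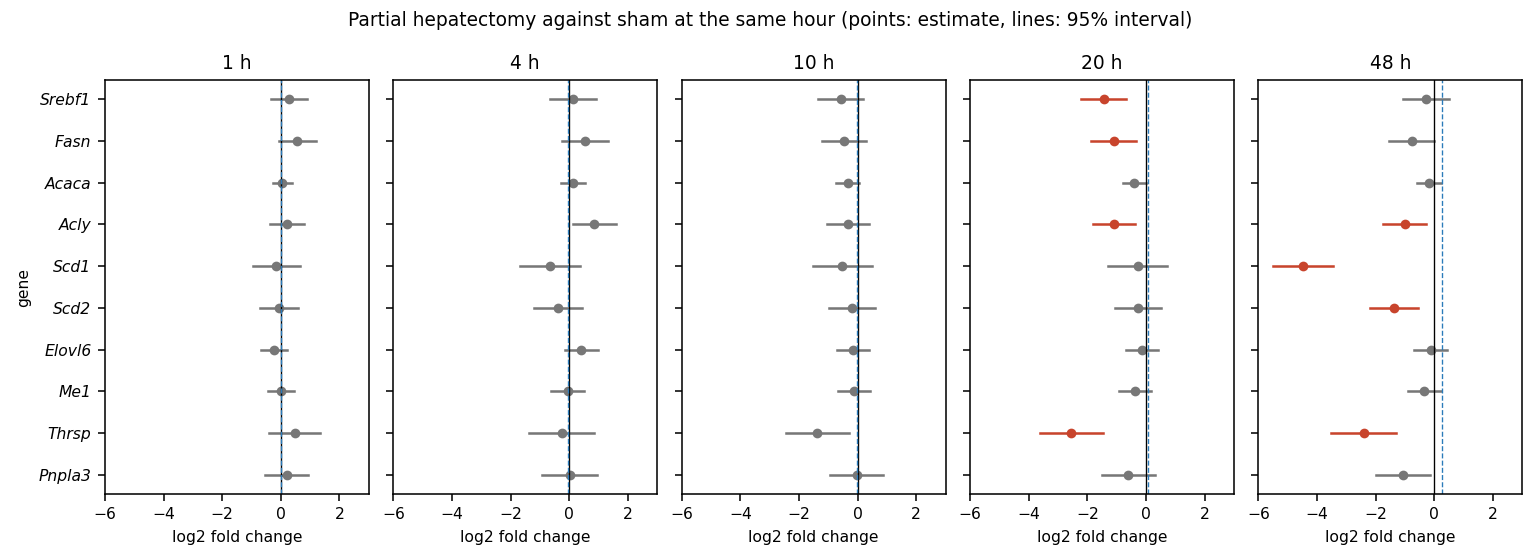
Fitted log2 fold change of PH against sham at the same hour (horizontal axis) for each of the 10 genes (vertical axis), in 5 panels for 1, 4, 10, 20 and 48 h. Points are estimates, lines 95% intervals, red marks called genes and the dashed blue line the median of all genes, and red points appear at 20 and 48 h alone, all to the left of 0.

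At 20 h (ZT22, in the feeding phase) 4 of the 10 genes were called lower after PH than after sham and none higher. They were Srebf1, Thrsp, Acly and Fasn, where 2.61% of all genes tested were called lower and 7.11% called in either direction. All 10 genes had a negative fold change, with a median of -0.50 against 0.07 for all genes. Srebf1 had 31, 31.1 and 30.9 RPKM in S20 and a lowest value of 5.62, a median of 14.5 and a highest value of 17.3 RPKM in X20. The sham livers were nearly equal and all 6 X20 livers stood below them.

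Thrsp had 75.1, 100.5 and 104 RPKM in S20 and a lowest value of 4.95, a median of 22.7 and a highest value of 31.7 RPKM in X20, also without overlap. Its log2 fold change was -2.54, SE 0.54, adjusted p = 8.83e-04, that of Srebf1 -1.45, SE 0.38, adjusted p = 0.00688. Acly, which makes acetyl-CoA, had 51.6, 49.6 and 57.9 RPKM in S20 and a lowest value of 13, a median of 27.5 and a highest value of 38.9 RPKM in X20, without overlap (-1.08, SE 0.35, adjusted p = 0.0326). Fasn had 47.7, 32 and 58.9 RPKM in S20 and a lowest value of 11.6, a median of 21.8 and a highest value of 32.2 RPKM in X20. One X20 liver lay just above the lowest S20 liver, and the change was -1.10, SE 0.38, adjusted p = 0.0408. Of all genes, 16.8% did not overlap. Acaca was among them but was not called (-0.40, SE 0.20, adjusted p = 0.175), and Scd1, Scd2, Elovl6, Me1 and Pnpla3 had adjusted p from 0.379 to 0.782.

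X20 replicates 4 to 6 were lower than replicates 1 to 3 for several of these genes. With replicates 1 to 3 alone 1 gene stayed called, Thrsp, and Srebf1 was at -1.0 (adjusted p = 0.102), Fasn at -0.68 (0.304) and Acly at -0.55 (0.38). With replicates 4 to 6 alone none of the calls was lost. Which X20 replicates share the period of S20 is not given. The count was 2 without S20 replicate 1 or 3 or X20 replicate 5 or 6, 2 with no filter on low values and 1 with S20 and X20 fitted alone. Among all 15396 genes, 1361 were called with X20 replicates 1 to 3 alone and 675 with S20 and X20 fitted alone. The summed level of 9 hepatocyte markers ran from 33463 to 36795 RPKM in S20 and from 25351 to 33685 in X20. That of 7 stellate cell markers ran from 32.9 to 56.2 RPKM in S20 and from 57.5 to 78.1 in X20, without overlap, and the part of either in these differences was not tested.

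Whether the difference from sham itself changed with time was tested as a difference of differences. Between 4 and 10 h and between 10 and 20 h none of the 10 genes was called (3.73% and 0.104% of all genes), with 1 and 0 at an unadjusted p under 0.05 by limma. So the calls at 20 h were not shown to differ from the changes at 10 h. Thrsp moved by -1.16, SE 0.76, adjusted p = 0.695 between those hours.

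A day apart at the same hour, ZT6, the post-PH livers at 28 h had lower levels of 6 of the 10 genes than those at 4 h, where 5.72% of all genes were called lower and 28.3% in either direction. Thrsp fell most, from 125, 250.2 and 95.8 RPKM in X4 to 17.7, 5.36 and 5.90 RPKM in X28, without overlap. The change was -4.08, SE 0.62, adjusted p = 3.23e-07. The carboxylase Acaca had 11.6, 11.1 and 8.46 RPKM in X4 and 6.69, 4.15 and 4.33 RPKM in X28 (-1.02, SE 0.23, adjusted p = 2.23e-04), again without overlap. Fasn had 34.3, 33.3 and 24.6 RPKM in X4 and 15.1, 6.08 and 9.02 RPKM in X28. Every X28 liver was below every X4 liver, at -1.67, SE 0.44, adjusted p = 0.00159. X28 replicate 2 held the lowest X28 values of Thrsp, Acaca and Fasn. It had 15722 genes at 0 reads, against 20281 and 20491 in the other X28 libraries, and why was not tested. Without it these genes kept their calls.

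Scd1 had 1112, 668 and 450.2 RPKM in X4 and 202, 179.9 and 203 RPKM in X28, without overlap (-1.83, SE 0.58, adjusted p = 0.00873). Acly (-0.99, SE 0.41, adjusted p = 0.0485) and Me1 (-0.86, SE 0.31, adjusted p = 0.0228) were also called, and Me1 alone of the 6 overlapped between the groups. Non-overlap was common here, at 52.9% of all genes. Without X4 replicate 4, Scd1 (adjusted p = 0.0654), Acly (0.0999) and Me1 (0.0943) lost their calls and the count was 3, and Acly and Me1 also lost theirs without X4 replicate 5 or X28 replicate 2 or 3. Srebf1 was low at both times, with 6.76, 5.91 and 3.97 RPKM in X28 and a change of 0.26, SE 0.44, adjusted p = 0.691. Pnpla3 was at 0.0305, 0.0169 and 0.00900 RPKM in X28, its lowest group mean. The median of all genes stood at 0.20 in this comparison, so that the 6 genes fell further relative to it. No sham liver was taken at 28 h, so surgery and time since surgery cannot be told apart there. X28 came from the first period alone. The X4 livers with values are replicates 4 to 6, and their period is not given. If all of them came from the second, period and time since surgery cannot be told apart either. The hepatocyte sum ran from 38167 to 41036 RPKM in X4 and from 28553 to 30857 in X28. The macrophage sum (7 markers) ran from 11.5 to 14.8 and from 24 to 63.0 RPKM and the endothelial sum (6 markers) from 13.7 to 14.9 and from 16.8 to 20.2 RPKM. None of these ranges overlapped, and their part in the changes was not tested.

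The members differed in their course through the first 2 days. Scd1 had means of 1651 ± 719 RPKM (SD, n = 6) in S1, 789 ± 169 RPKM (SD, n = 3) in S10 and 464 ± 171 RPKM (SD, n = 3) in S20, so the sham livers too held less at 20 h than at 1 h, before 1797 ± 379 RPKM (SD, n = 3) in S48. After PH it had means of 1524 ± 769 RPKM (SD, n = 6) in X1, 642 ± 290.2 RPKM (SD, n = 6) in X10, 382 ± 149 RPKM (SD, n = 6) in X20 and 195 ± 13.1 RPKM (SD, n = 3) in X28. No test of these changes over time was made beyond those given at 28, 44 and 48 h.

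Me1, the NADPH-making malic enzyme, varied less. It had 47.2, 47.2 and 33.9 RPKM in S10 and a lowest value of 33.3, a median of 38.6 and a highest value of 45.8 RPKM in X10, and 44.7, 54.9 and 41.8 RPKM in S20 and a lowest value of 31.6, a median of 34.4 and a highest value of 43.7 RPKM in X20. The sham and PH ranges overlapped at both hours. Elovl6 had 12.2, 9.76 and 13.2 RPKM in S20 and a lowest value of 6.05, a median of 12.2 and a highest value of 16.6 RPKM in X20, and 11.1, 7.55 and 13.4 RPKM in S48 and 10.1, 10.4, 7.41, 8.60 and 11.7 RPKM in X48. Again the ranges overlapped at both hours, with log2 fold changes of -0.15, SE 0.27, adjusted p = 0.782 and -0.12, SE 0.28, adjusted p = 0.771.

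At 36 h (ZT14, soon after food became available) the levels were uneven between livers. Srebf1 had a lowest value of 12.6, a median of 22.8 and a highest value of 61.9 RPKM and Fasn a lowest value of 25, a median of 29.3 and a highest value of 78.4 RPKM. Replicate 2 held both the highest Srebf1 value and, at 52.7 RPKM, the lowest Scd1 value of the 6, while Fasn was highest in replicate 1. Elovl6 was between 9.86 and 20.2 RPKM and Acaca between 7.68 and 9.82 RPKM.

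At 44 h against 20 h, both ZT22 after PH, Scd1 alone was called, where 3.11% of all genes were called lower and 16.1% in all. Scd1 had a lowest value of 216, a median of 343 and a highest value of 645 RPKM in X20 and 53.9, 40.9 and 217 RPKM in X44. The ranges touch, since X44 replicate 3 lay just above the lowest X20 liver, and the change was -2.20, SE 0.50, adjusted p = 4.34e-04. None of the 10 genes was without overlap, against 27.0% of all genes. X44 replicate 3 was the highest of its group for 8 of the 10 genes and replicate 2 the lowest for 9. Fasn moved by -0.01 (95% interval -0.76 to 0.75), Elovl6 by 0.02 (-0.52 to 0.56) and Srebf1 by 0.53 (-0.22 to 1.29).

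The largest difference between PH and sham was that of Scd1, the main liver desaturase, at 48 h. Scd1 had 1670.3, 1498 and 2223 RPKM in S48 and 45.2, 166, 63.1, 176 and 36.9 RPKM in X48. Every X48 liver was far below every sham liver. The log2 fold change was -4.48, SE 0.52, adjusted p = 7.12e-11. X48 replicates 2 and 4 had Scd1 and Srebf1 values well above those of replicates 1, 3 and 5. Of the 10 genes 4 were called lower and none higher, beside 2.69% of all genes called lower and 27.2% called in either direction.

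Thrsp had 160.4, 96.1 and 168 RPKM in S48 and 34, 46.7, 18.6, 33.3 and 11.1 RPKM in X48, without overlap (-2.41, SE 0.56, adjusted p = 2.91e-04). The second desaturase, Scd2, had 3.84, 2.97 and 5.34 RPKM in S48 and 1.09, 1.59, 1.21, 1.57 and 1.36 RPKM in X48, also without overlap (-1.39, SE 0.41, adjusted p = 0.00424). Reads shared with Scd1, Scd3 or Scd4 were divided among these genes by the authors, so their values are not fully separate. Acly had 46.9, 54 and 79.6 RPKM in S48 and 26.7, 35.5, 27.6, 30.8 and 25.3 RPKM in X48. No liver overlapped, at -1.01, SE 0.37, adjusted p = 0.02, but without S48 replicate 3 the adjusted p was 0.131.

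Of all genes, 45.9% did not overlap in this comparison. Pnpla3 was among them and was not called (-1.06, SE 0.46, adjusted p = 0.056). Srebf1, the regulator of the set, had 17.6, 24.3 and 17.1 RPKM in S48 and 8.87, 32.6, 16.6, 28.6 and 7.63 RPKM in X48. The X48 range enclosed the sham range, and the change was -0.27, SE 0.39, adjusted p = 0.621, with a 95% interval from -1.05 to 0.51. Fasn stood at -0.77, SE 0.39, adjusted p = 0.1, and Acaca at -0.17, SE 0.20, adjusted p = 0.528. The median of all genes was 0.27 higher in X48. After scaling all libraries to 1 median, 8 of the 10 genes were called lower, Srebf1 and Elovl6 being the others. Of all 15396 genes tested, 1730 were then called lower, against 414 without scaling. Higher values made up 38.8% of all calls in place of 90.1%.

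The Scd1 difference from sham changed from 20 to 48 h by -4.20, SE 0.72, adjusted p = 7.72e-06, the single call among the 10 genes, beside 0.650% of all genes lower and 13.2% in all. Srebf1 moved the other way between those hours (1.18, SE 0.54, adjusted p = 0.138), and 2 of the 10 had an unadjusted p under 0.05 by limma. Against resting liver at the same hour, S48 gave no calls among the 10 genes (8.88% of all genes) and 1 unadjusted p under 0.05, while X48 gave 6 lower, beside 7.66% of all genes lower and 38.1% in all. In addition to Scd1 (-4.37), Thrsp (-2.77), Scd2 (-0.98) and Acly (-0.93) these were Pnpla3 (-1.74, SE 0.36, adjusted p = 2.07e-05) and Me1 (-0.90, SE 0.21, adjusted p = 2.09e-04). X48 had 4 of the 10 genes without overlap with C0, where 35.5% of all genes had none, and S48 had 0, where the share was 11.2%. The comparisons share the C0, S48 or X48 libraries with each other and with that against sham. With C0 replicates 7 to 9 alone, S48 had 3 calls, 2 higher and 1 lower, and with replicates 4 to 6 it had 1, to a lower value. Among all 15396 genes tested, 3732 and 990 were called with these controls. In X48 the calls for Acly (-0.45, adjusted p = 0.281) and Scd2 (-0.15, adjusted p = 0.766) were lost with C0 replicates 7 to 9 alone as the control. That for Pnpla3 was lost with C0 replicates 1 to 3 alone (-0.79, adjusted p = 0.113) and with C4W (-0.47, adjusted p = 0.511). The hepatocyte sum ran from 46333 to 56083 RPKM in C0, without overlap with X48.

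**Figure D3:**
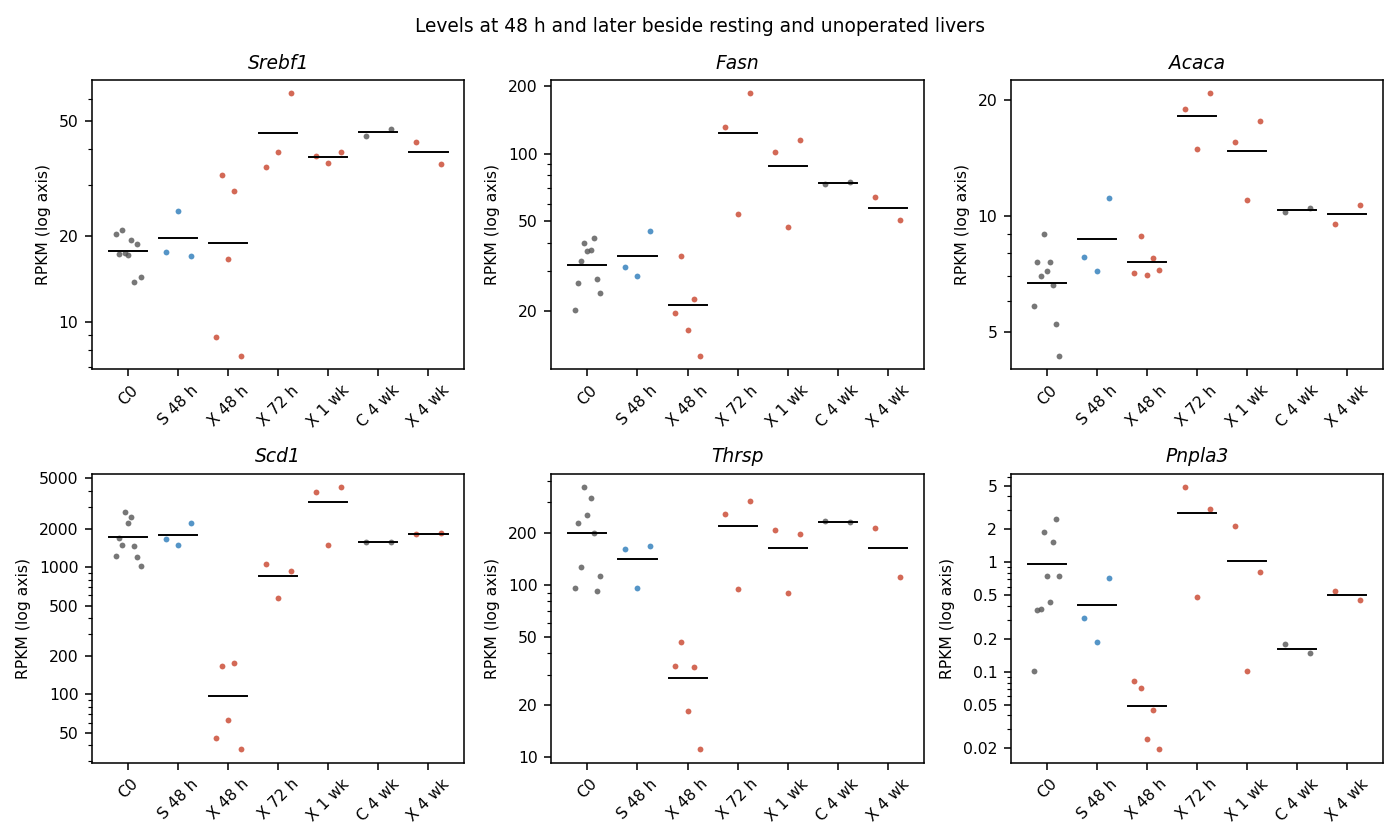
Levels of 6 of the genes (vertical axis, RPKM, log scale) in each library of C0, sham at 48 h, PH at 48 h, 72 h and 1 week, and unoperated and post-PH livers at 4 weeks, with black bars for means. Scd1 is between 36.9 and 176 RPKM at 48 h after PH and at least 575 in all other livers shown, and the unoperated livers at 4 weeks lie above the C0 livers for Srebf1 and Fasn.

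At 72 h the levels were high. Of the 10 genes 7 were called higher than in C0 and none lower, where 26.6% of all genes were called higher and 33.2% in all. No sham liver was taken at 72 h, so the loss of liver and the surgery itself cannot be told apart there. Fasn had a lowest value of 20.1, a median of 33.3 and a highest value of 42.4 RPKM in C0 and 131, 53.7 and 185 RPKM in X72. All 3 X72 livers were above the 9 resting livers, with a log2 fold change of 1.80, SE 0.36, adjusted p = 1.95e-05. Acaca, at 18.9, 14.9 and 20.8 RPKM in X72 against between 4.33 and 8.97 RPKM in C0, changed by 1.42, SE 0.18, adjusted p = 2.07e-09. Acly had 161, 98.6 and 199 RPKM in X72 against between 35.3 and 90.1 RPKM in C0 (1.40, SE 0.33, adjusted p = 3.19e-04). Neither overlapped, as was so for 33.6% of all genes. Srebf1 had 34.8, 39 and 62.6 RPKM in X72 and likewise did not overlap with C0 (1.31, SE 0.36, adjusted p = 0.00151).

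Elovl6 (1.45, SE 0.26, adjusted p = 2.70e-06), Scd2 (1.18, SE 0.37, adjusted p = 0.0065) and Pnpla3 (1.22, SE 0.42, adjusted p = 0.0127) were called with overlapping ranges. Scd1 was still at 1052, 575 and 927 RPKM in X72. All 3 were above the X48 livers, with 1 inside the C0 range and 2 below it (-0.99, SE 0.47, adjusted p = 0.0728). Thrsp, with 258, 94.8 and 307 RPKM, was within the C0 range, and Me1 moved by -0.48, SE 0.25, adjusted p = 0.109. X72 replicate 2 was the lowest of its group for 9 of the 10 genes. The calls for Scd2 and Pnpla3 were lost without X72 replicate 1 (adjusted p = 0.336 and 0.288) and after scaling all libraries to 1 median, that for Pnpla3 also without X72 replicate 3 (0.113). With C0 replicates 4 to 6 alone as the control, Acly (0.85, adjusted p = 0.0781), Scd2 (0.50, adjusted p = 0.373) and Pnpla3 (1.04, adjusted p = 0.0736) lost their calls, and with C0 replicates 7 to 9 alone Pnpla3 stood at 0.45 (adjusted p = 0.443). The median of all genes was 0.21 higher in X72, and under that scaling Scd1 and Me1 were called lower at -1.38 and -0.87. So were 2556 of all 15396 genes tested.

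At 1 week 5 genes were called higher than in C0, beside 12.4% of all genes higher and 16.9% in all. This time also had no sham livers, so the same limit holds. Scd2 had 10.9, 4.44 and 16.3 RPKM in X1W against between 1.14 and 6.40 RPKM in C0 (1.60, SE 0.37, adjusted p = 6.36e-04). Replicate 2, the lowest of the 3, was within the resting range. It was the lowest liver for all 10 genes. Fasn was at 101, 47.4 and 116 RPKM (1.39, SE 0.36, adjusted p = 0.00163), Acaca at 15.5, 11 and 17.6 RPKM (1.10, SE 0.18, adjusted p = 4.72e-06) and Srebf1 at 37.9, 35.7 and 39.1 RPKM (1.09, SE 0.36, adjusted p = 0.0139). None of these 3 genes overlapped with C0, against 19.7% of all genes, and the Srebf1 call was lost without X1W replicate 3 (adjusted p = 0.0688). It was also lost with C0 replicates 1 to 3 alone as the control (0.94, adjusted p = 0.133). With C0 replicates 4 to 6 alone, Srebf1 (1.06, adjusted p = 0.0842), Fasn (1.11, adjusted p = 0.0621) and Scd2 (0.92, adjusted p = 0.118) all lost their calls. Under that control 2 of the 10 genes were called higher and 1 lower, beside 2406 of all 15396 genes called in either direction. Elovl6 was also called (1.05, SE 0.26, adjusted p = 0.00102), while Scd1 reached its highest group level, 3909, 1495 and 4294 RPKM, without a call (0.83, SE 0.47, adjusted p = 0.173). The median of all genes was 0.12 higher in X1W, and after scaling all libraries to 1 median Me1 was called lower at -0.67. So were 1543 of all 15396 genes tested.

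The unoperated livers at 4 weeks were themselves above C0 for part of the set. Srebf1 was at 44.4 and 47.1 RPKM and Fasn at 73 and 74.5 RPKM in C4W, above all 9 C0 livers. With C4W in place of C0, a choice made after the data were seen, 3 genes were called higher at 72 h (Acaca 0.78, Acly 1.20 and Pnpla3 2.49) and none at 1 week, where 2 had an unadjusted p under 0.05 by limma. Of all 15396 genes tested, 3693 were called in either direction at 72 h and 740 at 1 week. Srebf1 then stood at -0.06 at 72 h and -0.28 at 1 week. At 48 h, Scd1 was lower against C4W too (-4.31, SE 0.59, adjusted p = 1.38e-08). The 2 C4W libraries may come from 1 liver, so p-values against them may not measure a spread between animals. They share no period with X48, X72 or X1W, and no separate age is given for these mice. The 1 week comparison with C0 is also not matched by hour in the labels.

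At 4 weeks none of the 10 genes was called between X4W and C4W, beside 0.0650% of all genes, and none had an unadjusted p under 0.05 by limma. Srebf1 was at 42.5 and 35.5 RPKM in X4W, Fasn at 63.9 and 50.9 RPKM and Scd1 at 1811 and 1847 RPKM. For 8 of the 10 genes the pairs did not overlap, as for 50.1% of all genes. With 2 libraries a group the intervals are wide: for Fasn the change was -0.37 (95% interval -1.44 to 0.70) and for Pnpla3 0.86 (-0.41 to 2.14).

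**Figure D4:**
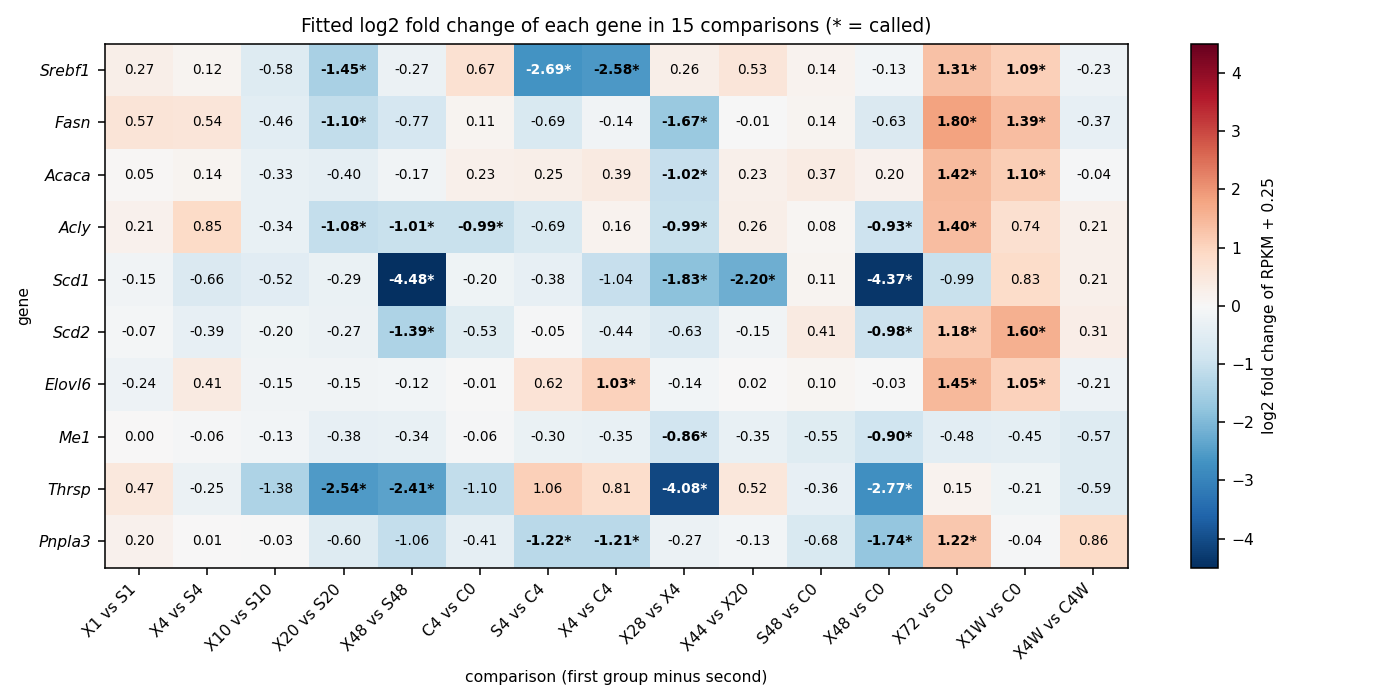
Fitted log2 fold change (RPKM + 0.25) of the 10 genes (rows) in 15 comparisons (columns, first group minus second), with blue for lower, red for higher and an asterisk for a call. The deepest blue cells are Scd1 at 48 h (-4.48 against sham and -4.37 against C0) and Thrsp at 28 h (-4.08 against 4 h), and the red block is X72 and X1W against C0.

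Ordered by group mean, the genes differed in where they peaked. Srebf1 was highest in C4W, X72, X4W and X1W and lowest in S4, X10 and X4. Fasn, Acaca, Acly and Elovl6 were highest in X72. The spans from lowest to highest group mean, on the log2(RPKM + 0.25) scale, were 5.22 for Scd1, 4.89 for Thrsp, 3.50 for Fasn, 3.39 for Srebf1, 3.35 for Acly, 3.20 for Scd2, 3.11 for Pnpla3, 1.82 for Acaca, 1.5 for Me1 and 1.47 for Elovl6. Neighbours in these orders, 18 pairs a gene, were almost never apart. Only C4 above X36 for Thrsp (adjusted p = 0.0466) and X72 above C0 for Pnpla3 (adjusted p = 0.0127) passed, each with overlapping ranges.

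The other genes of the pathway were followed in lists. Of 22 further fatty acid synthesis genes, which include the carboxylase Acacb, the acetyl-CoA synthetase Acss2, the citrate carrier Slc25a1 and the desaturases Fads1, Fads2, Scd3 and Scd4, 7 were called lower and 2 higher at 48 h against sham, where 2.69% of all genes were called lower and 24.5% higher. Scd3 (-3.99, SE 0.55) and Scd4 (-2.43, SE 0.40) fell most, and Elovl1 (0.68, SE 0.16) and Ptplad1 (0.62, SE 0.15) rose. The list's median was -0.25, that of the 10 genes -0.89 and that of all genes 0.27. At 20 h against sham 3 were lower, with Aacs (-1.72) and the acetate-using Acss2 (-1.70) leading, and 1 was higher, Ptplad1 (0.57), beside 2.61% of all genes lower and 4.49% higher. At 72 h against C0, 8 were higher and 3 lower (26.6% and 6.59% of all genes), led by Aacs (1.71) and Acsl4 (1.27) on one side and the elongases Elovl3 (-5.88) and Elovl5 (-0.69) on the other. The median there was 0.23, against 1.27 for the 10 genes and 0.21 for all genes.

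Of 8 genes that supply carbon or NADPH, 4 were called lower and none higher at 48 h against sham (2.69% and 24.5% of all genes), led by G6pdx (-1.16). At 20 h the fructose-using kinase Khk was lower (-0.63). At 72 h against C0, G6pdx (1.05) and Pgd (1.03), which make NADPH in the pentose phosphate path, were higher and pyruvate kinase Pklr (-0.78) lower.

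Among 16 regulators, Insig1, which holds SREBP in the endoplasmic reticulum and is itself an SREBP target, was lower after PH than after sham at 4 h (-1.95), 10 h (-1.29), 20 h (-1.40) and 48 h (-1.16). Insig2, the related gene induced in fasting, was higher at 4 h (1.41), 10 h (2.01) and 20 h (1.11). Mlxipl, which encodes the glucose-responsive factor ChREBP, was lower against sham at 10 h (-1.30) and 20 h (-0.90) and lower at 4 h against C4 in S4 (-1.97) and X4 (-1.85). In X20 against S20, 2 of the 16 were called higher and 3 lower, beside 4.49% and 2.61% of all genes. In X72 against C0 5 were higher and 1 lower, beside 26.6% and 6.59% of all genes, so the higher count is near that background.

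Triglyceride assembly, with 8 genes, had 2 higher and 1 lower at 48 h against sham, beside 24.5% and 2.69% of all genes, the phosphatase Lpin1 being lower (-2.33) and Agpat3 (0.61) and Dgat1 (0.52) higher. Gpam, which starts glycerolipid synthesis, was higher at 72 h (1.88) and 1 week (0.92) against C0. Of 10 fasting-response genes 3 were higher and none lower at 20 h against sham, beside 4.49% and 2.61% of all genes, among them Igfbp1 (2.64) and Angptl4 (1.48). At 72 h against C0 none was higher and 4 were lower, beside 26.6% and 6.59% of all genes, including Angptl4 (-1.41) and G6pc (-1.30).

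Across the 19 group means, on a log2 scale, Fasn followed Acly most closely (Pearson's r = 0.91), and Srebf1 had r = 0.83 with both Fasn and Acly. Scd1 was less like Srebf1 (r = 0.24) than like Me1 (r = 0.80), and Elovl6 had r between -0.06 and 0.65 with the other 9. Each point is the mean of the same livers for every gene, so the values are descriptions. Among 10500 other genes, those most like Srebf1 were Bri3bp (r = 0.97), Pion (0.95) and the cholesterol synthesis enzyme Sc5d (0.95). Those most like Fasn were Aacs (0.93), Idh1 (0.91) and Uroc1 (0.89), and Scd1 was nearest to Scd3 (0.95), with which it may share reads. Thrsp was nearest to Sntg2 (0.93), Me1 to Ces1e (0.92), Pnpla3 to Chrna4 (0.92), Scd2 to Scd4 (0.87), Acaca to Plxna2 (0.77) and Elovl6 to Adhfe1 (0.73).

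**Figure D5:**
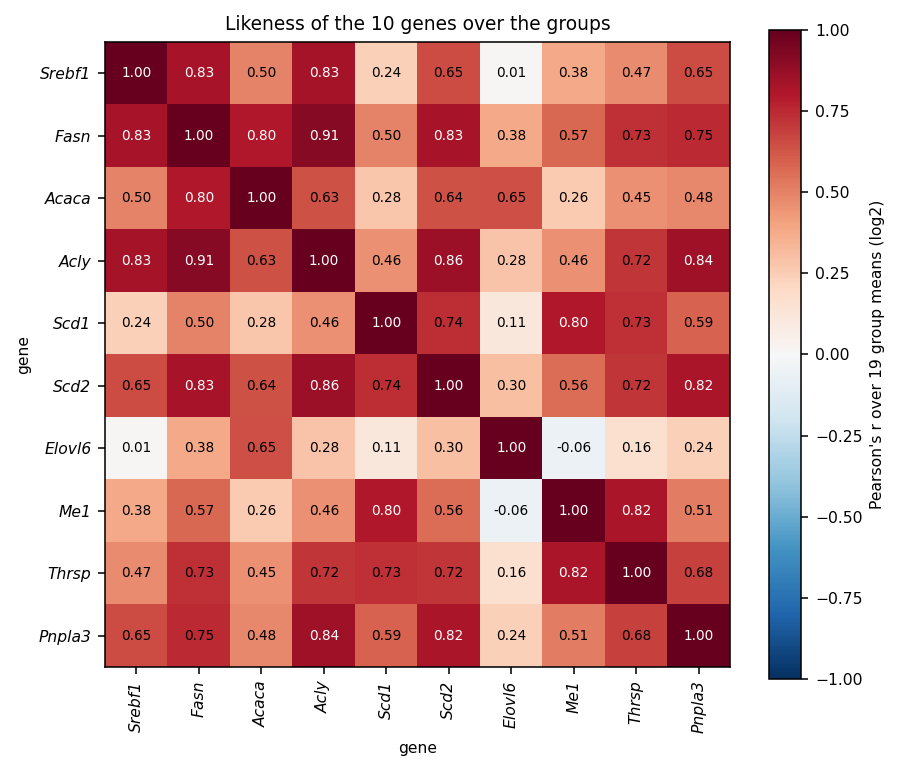
Pearson's r between the 10 genes over the 19 group means of log2(RPKM + 0.25), with gene names on both axes and the colour and number giving r. Fasn, Acly and Scd2 have r from 0.83 to 0.91 with each other, and Elovl6 has r from -0.06 to 0.65 with the rest.

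Markers of other cells were read beside these changes. Fat cells also make fatty acids, and of 7 adipocyte markers Adipoq was at 0 in 56 of 80 libraries and never above 0.0892 RPKM, and Lep, Retn and Plin1 were at 0 in 79, 76 and 72. The summed adipocyte list, carried by Fabp4, ran from 8.48 to 12.3 RPKM in S48 and from 15 to 42.2 RPKM in X48. The summed hepatocyte list ran from 38614 to 48085 RPKM in S48 and from 33183 to 38613 in X48. At the same hour the stellate cell list ran from 47.7 to 51.8 RPKM in S48 and from 59.9 to 104 in X48, and the endothelial list from 21.8 to 26.5 and from 16.0 to 20.6 RPKM, neither with overlap. At 10 h the stellate cell list ran from 29.7 to 43.2 RPKM in S10 and from 46.2 to 57.1 in X10. The macrophage list ran from 9.44 to 148 RPKM in C0 and from 38.9 to 85.3 in X1W. The part of these shifts in the results was not tested.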

How the data were processed

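RNA-seq libraries (poly(A), stranded, single-end) of 80 individual livers in 19 groups were analysed. The authors trimmed the reads, mapped them with TopHat2 2.0.13 and Bowtie2 to mm9, handled them with SAMtools 0.1.19 and used featureCounts, strand-aware, to count Ensembl genes, dividing a read of several map positions among these, and the deposited values are log2 RPKM, with 0 reads listed at -14.29 (52.9% of values). The file has 84 value columns, of which 4 match no sample and were not used, and 7 labelled samples have no column and were not analysed here. RPKM divides by each library's total, so abundant transcripts shift the rest. Read depths were estimated from the steps between low values.

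The values were converted to RPKM, and log2(RPKM + 0.25) was fitted in R 4.3.3 with limma 3.58.1 (1 coefficient per group, trend in the prior variance) for the 15396 genes above -1.5 log2 RPKM in at least 1 library. The study's own count test needs counts, so limma took its place with the same log2 limit of 0.5. p-values were adjusted by Benjamini-Hochberg over all genes tested and are two-sided. The fit was tested on simulated data (X48 against S48, 15396 genes, 200 changed), where it recovered 0.99 of changes of 2 and 0.82 of changes of 1 on the log2 scale. The simulated noise was independent between libraries, with no differences between periods or sets of replicates. The changed genes were drawn from those of higher mean level, so genes as low as Pnpla3 were not covered. Alternatives were another pseudocount, a stricter filter or none, scaling to 1 median, fits of the compared groups alone, no trend, a replicate block, subsets of replicates, C4W for C0 and each library left out. The 10 genes and the lists were chosen with earlier results of these data known. Besides the 10 genes, at most the 2 largest rises and 2 largest falls among called genes of a list were named per comparison, with the 3 genes most like a member. Promoter sequence came from the mm9 genome with Gencode vM1. Results for 1 gene of the lists and 1 promoter window are not reported here. Figures were drawn with matplotlib 3.10.9.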

Additional observations from a re-analysis of the deposited data

Results flagged for a closer look

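In groups of 4 to 10 livers, 80 gene and group sets were searched for a single liver far from the rest on the log2 RPKM scale, of which chance gives about 5%, and 3 were found. Scd1 in X10 replicate 2 was the lowest, at 6.94 log2 RPKM against 8.97 for the next of 6 livers. Elovl6 in S1 replicate 2 was the highest, at 4.54 against 3.66 for the next. Thrsp in X36 replicate 6 was the lowest, at 4.60 against 5.18.

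The difference of PH from sham in Scd1 was not the same at 20 and 48 h. It changed by -4.20 on the log2 scale (SE 0.72, adjusted p = 7.72e-06 by limma), with all 5 X48 livers below all 3 S48 livers, whereas the X20 and S20 ranges overlapped.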

How the results depend on the processing

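Of 175 recomputed counts of called members, 151 stayed within 1.5 times of the reported count, and the cause was not tested for the rest. These 151 include counts of 0 that stayed 0, and neither the direction nor the identity of the genes was compared. Under scaling to 1 median X72 against C0 is among them, though Scd2 and Pnpla3 lost their calls and Scd1 and Me1 were called lower. Scaling to the same median gave 8 at 48 h against sham and 4 in S4 against C4, beside 2827 and 6299 of all 15396 genes. A pseudocount of 1 gave 1 in S4 against C4, beside 4467 of all genes. With no filter the counts were 2 at 20 h against sham, 0 in C4 against C0 and 1 in S4 against C4. Over all 37991 genes they were 843, 946 and 6537. Fits of the compared groups alone gave 1 at 10 h and 1 at 20 h against sham, and 1 and 2 for the differences between 4 and 10 h and between 20 and 48 h. The calls among all genes were 905, 675, 519 and 2140. With C0 replicates 1 to 3, 4 to 6 and 7 to 9 alone, C4 against C0 gave 0, 3 and 0. The calls among all genes were then 2571, 2761 and 174. C0 replicates 4 to 6 gave 1 for S48, to a lower value, and 3 for X1W, of which 2 were higher and 1 lower. Beside these, 990 and 2406 of all genes were called. Replicates 7 to 9 gave 3 for S48, of which 2 were higher and 1 lower, beside 3732 of all genes called. Replicates 1 to 3 alone gave 2 at 1 h, 1 at 10 h (X10) and 1 at 20 h (X20), beside 435, 1363 and 1361 of all genes. Chosen after seeing the data, S4 replicates 1 to 3 gave 1 at 4 h against sham, S4 replicates 4 and 5 gave 1 against C4, and C4W as the control gave 3 at 72 h and 0 at 1 week, where Srebf1 reversed to -0.057 and -0.28. In the same order, 1636, 5618, 3693 and 740 of all genes were called. X4 has replicates 4 to 6 alone here, so replicates 1 to 3 of both 4 h groups could not be set against each other, and S4 replicates 4 and 5 against X4 gave 0.

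The replicate block moved the count of C4 against C0 from 1 to 2, the other counts staying within 1.5 times. With it, Acly (adjusted p = 0.0616) and Me1 (0.165) in X28 against X4, Scd2 in X72 (0.0982) and Srebf1 in X1W (0.0704) lost their calls. The numbers were not taken as pairs, since deviations of same-numbered libraries correlated from -0.19 to 0.27 and in no comparison above 0.1 in every pair.

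Leaving out 1 library gave counts of 0 to 1 for C4 against C0, 1 to 3 for S4, 2 to 3 for X4 against C4, 2 to 4 at 20 h and 3 to 5 at 48 h against sham, 3 to 6 for X28 against X4, 6 to 7 for X48, 5 to 8 for X72 and 4 to 6 for X1W against C0. The counts at 1, 4 and 10 h against sham, for S48 and at 4 weeks stayed 0, and those of X44 against X20 and of the difference between 20 and 48 h stayed 1. Of 409 member fold changes under other settings, 357 kept their call and 50 lost it. Depth limits Pnpla3 most, whose median library held an estimated 14.0 reads.

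Scaling to the same median moved the share of higher calls among all genes from 36.5% to 48.2% in X4 and 63.3% to 43.3% in X20 against sham, from 73.6% to 51.5% in C4 against C0, from 28.3% to 45.9% in S4 and 25.6% to 44.4% in X4 against C4, and from 79.8% to 56.6% in X28 against X4. It moved from 80.6% to 44.0% in X44 against X20, and against C0 from 79.9% to 34.0% in X48, 80.1% to 40.9% in X72 and 73.5% to 35.9% in X1W. For the differences in time it moved from 68.5% to 53.5% (4 to 10 h), 81.2% to 45.5% (10 to 20 h) and 95.1% to 48.0% (20 to 48 h).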
